A study of Mus musculus with 6 samples.

Results

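The genes described here encode the cytosolic ribosomal proteins, the protein parts of the ribosomes that translate messenger RNA in the cytoplasm. They were taken by symbol: Rpl or Rps followed by a number, Rplp0 to Rplp2, and Rpsa, leaving out the Rps6k kinases and pseudogenes. The rule gave 89 of 22942 genes. Of these, 77 encode core ribosomal proteins, 46 of the large subunit and 31 of the small subunit. Another 8 are paralogs of a core protein, 3 are retrogenes or copies (Rpl32l, Rps23rg1 and Rps27rt), and 1, Rps19bp1, encodes a protein that binds Rps19 and is no part of the ribosome.

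The cultures were of C3H-10T1/2, a mesenchymal cell line of the mouse that can form fat, and their messenger RNA was sequenced. In the treated group, 3 cultures received 4 uM of the LSD1 inhibitor 611 (Cpd A), and in the control group 3 cultures received DMSO. All 6 cultures were collected on day 6 of brown adipocyte differentiation, in both groups after an induction mix of isobutylmethylxanthine, indomethacin, dexamethasone, insulin, T3 and rosiglitazone, followed by insulin, T3 and rosiglitazone. LSD1 removes methyl groups from histones. The labels place the first dose both at seeding and some hours after it, and all cultures come from 1 cell line. The deposited values are RPKM, reads scaled to transcript length and to the library total. Library totals, recovered from the steps between low values, lay between 40800000 and 41200000 reads with 611 and between 38800000 and 39800000 reads with DMSO.

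The ribosome joins amino acids in its large subunit and reads the messenger RNA on its small subunit. Cells make its proteins in matched amounts, and surplus ribosomal protein is degraded. Most of the messenger RNAs begin with a run of pyrimidines at the extreme 5′ end, the TOP motif, through which mTOR signalling and the RNA-binding protein Larp1 control their translation. Ribosome production is high in growing and dividing cells.

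RefSeq promoters of the GRCm38.p6 build were at hand for 68 of the 89 genes. The windows shown span 20 bases before to 10 bases from the annotated start, 5′ to 3′ on the gene's own strand. Capitals mark the longest unbroken run of C and T near the start, as far as it falls in the window. The longest run of Rpl7l1, of 3 bases, is left unmarked. The first set shows core genes with a run of at least 8 bases near the start. The run covers the annotated start in each of them except Rpl13, where it lies wholly before it, and the set ends with Rplp2, whose level did not pass the test.
Rpl35 (chr2:39005122-39005151, minus strand): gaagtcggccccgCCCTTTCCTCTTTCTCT
Rpl28 (chr7:4792945-4792974, plus strand): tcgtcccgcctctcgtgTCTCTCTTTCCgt
Rps6 (chr4:86857358-86857387, minus strand): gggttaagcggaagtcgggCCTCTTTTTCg
Rpl14 (chr9:120571497-120571526, plus strand): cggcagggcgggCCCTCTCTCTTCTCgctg
Rpl13 (chr8:123102330-123102359, plus strand): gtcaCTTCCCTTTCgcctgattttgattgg
Rplp2 (chr7:141447631-141447660, plus strand): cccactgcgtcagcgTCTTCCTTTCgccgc

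The second set shows core genes without such a run, from the largest rise (Rps28) to a gene that did not pass the test (Rpl27), and a pair of paralogs whose levels did not rise.
Rps28 (chr17:33824553-33824582, minus strand): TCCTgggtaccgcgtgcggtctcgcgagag
Rpl12 (chr2:32961692-32961721, plus strand): gcgtgggcggagcaggatccgTCTTTTCgg
Rpl27 (chr11:101442225-101442254, plus strand): ccggaacgctctgTTCCTgtctgctgctcg
Rpl36al (chr12:69184058-69184087, minus strand): gttcgcaTTCCCgtcgctcaggttcagttc
Rpl7l1 (chr17:46782647-46782676, minus strand): gcccggtgaggctgcgcaagcgcagtagct

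A run of at least 8 pyrimidines on the sense strand within 20 bases of the annotated start was present in 30 of the 57 core genes with a promoter (52.6%). The share among all 27025 genes with a RefSeq promoter was 23.7%. The letters CTCTTT stood on the sense strand in the same window in 9 core genes (15.8%), against 1.81% of all genes, and these matches overlap the pyrimidine runs. Over the whole 300 bases and on either strand, CCGGAAGT was found in 11 core genes (19.3%, against 4.31% of all genes), GCCATCTT in 5 (8.77%, against 3.19%) and TATAAA in 6 (10.5%, against 15.7%). Among the 10505 genes tested that had a promoter, CCGGAAGT was in 8.81%, GCCATCTT in 5.16% and TATAAA in 9.02%. The pyrimidine run was in 23.6% of them and CTCTTT in 1.66%. These are matches of letters at annotated starts, not measured sites.

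Ribosomal protein transcripts were more abundant in the 611 cultures. The 89 genes together held 8.81, 9.06 and 8.97% of the summed RPKM of the 611 libraries, against 6.99, 7.22 and 6.89% in the DMSO libraries. All 3 values with 611 lay above all 3 values with DMSO. For the large subunit the share was 5.12 ± 0.0640% with 611 and 4.06 ± 0.102% with DMSO (SD, n = 3 each). The small subunit held 3.62 ± 0.0580% with 611 and 2.79 ± 0.0700% with DMSO (SD, n = 3 each). In RPKM, the summed level of the 77 core genes was 1.22-fold higher with 611. The symbol rule leaves out 3 further core ribosomal proteins, which are not among the 77. Together these 3 held 1425 to 1480 RPKM with 611 and 1360 to 1488 RPKM with DMSO. Their groups overlapped, and their mean sum was 1.03-fold higher with 611. Of the 3, Fau (mean 299 against 263 RPKM) and Rack1 (358 against 294 RPKM) were higher with 611. The mitochondrial ribosomal proteins, which build the separate ribosome of mitochondria, held 0.833 ± 0.0149% with 611 and 0.899 ± 0.0125% with DMSO (SD, n = 3 each).

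**Figure D1:**
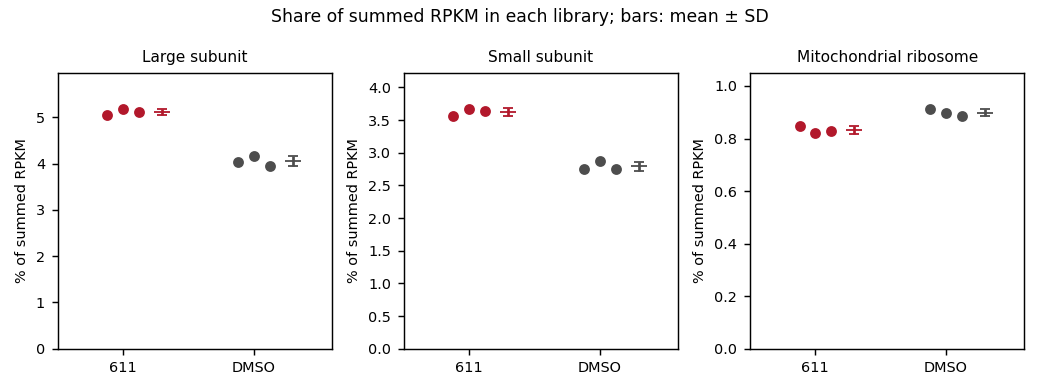
Share of the summed RPKM (%) held by large-subunit, small-subunit and mitochondrial ribosomal protein genes. Each point is a library, 611 on the left and DMSO on the right of each panel, and bars give the mean ± SD of 3 libraries. For both cytosolic subunits every 611 library lies above every DMSO library, and for the mitochondrial ribosome every 611 library lies below.

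Of the 85 genes that passed the filter on low values, 76 rose with 611, 1 fell and 8 did not pass the test (limma with trend on log2(RPKM + 1), Benjamini-Hochberg adjusted p under 0.05 over all 13829 genes tested). Across all genes tested, 41.6% rose and 17.7% fell. Among the 77 core genes 73 rose and none fell, and the log2 fold changes ran from 0.08 to 0.50 around a median of 0.29. The median of all genes tested was 0.10. All 77 fitted changes were positive, and 68 stayed so after the scaling described next. In 74 core genes the 3 values with 611 lay above all 3 with DMSO, where 45.8% of all genes tested did so. With 611 below, the groups were apart in 1 of the 85 genes, against 20.4% of all genes tested. All 31 small-subunit genes rose (median 0.32), and 42 of the 46 large-subunit genes rose (median 0.29). With the replicate number as a block all 77 core genes rose, against 44.6% of all genes tested.

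Because more genes rose than fell in the whole table, the same fit was made after median-of-ratios scaling, which moved the median of all genes to -0.0028. With this scaling 28.5% of all genes rose and 28.6% fell, so that 49.9% of the calls were rises, against 70.1% without it. Of the core genes 50 rose and none fell, with a median of 0.14, and all 50 were among the 73. They were 27 of the 46 large-subunit and 23 of the 31 small-subunit genes. Highly expressed genes outside the ribosome fell more often than they rose. Among the 494 other genes at 100 RPKM or more, 130 rose and 287 fell (median -0.24, unscaled). Among the 121 of these with transcripts under 1000 bases, closer in length to ribosomal protein transcripts, 26 rose and 76 fell (median -0.27).

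**Figure D2:**
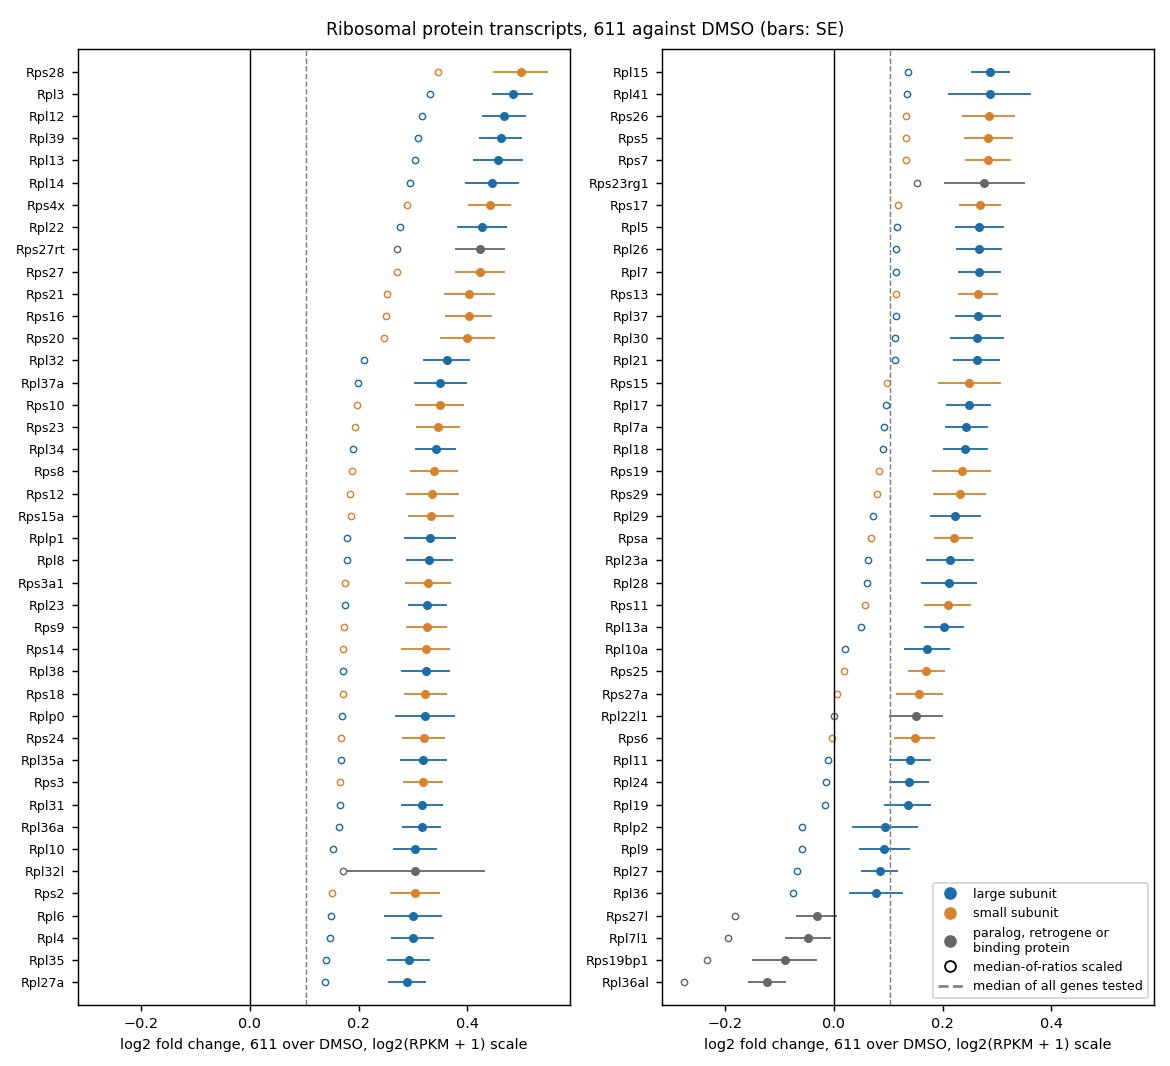
Fitted log2 fold change of the tested genes shown, 611 over DMSO, on the log2(RPKM + 1) scale. Filled points are unscaled with bars of 1 SE, open points follow median-of-ratios scaling, colour gives the subunit, and the dashed line is the median of all genes tested (0.10). Core genes run from 0.08 (Rpl36) to 0.50 (Rps28) unscaled, and the paralogs Rpl36al, Rpl7l1 and Rps27l and the binding protein Rps19bp1 lie below 0.

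Markers of cell state differed between the groups as well. Beside the counts of these markers, 41.6% of all genes tested rose and 17.7% fell. All 7 tested adipocyte markers (such as Adipoq and Fabp4) fell, and their list summed to between 14224 and 15752 RPKM with 611, against 27629 to 28938 RPKM with DMSO. Of 6 tested brown adipocyte markers 5 fell (summed 83.5 to 102 RPKM with 611, 224 to 268 RPKM with DMSO), and Ucp1, the brown fat uncoupling protein, was listed at 0 in all 6 libraries. Of 8 fibroblast or preadipocyte markers 7 rose and none fell (607 to 627 RPKM with 611, 227 to 249 RPKM with DMSO). All 8 markers of dividing cells rose (223 to 254 RPKM with 611, 106 to 113 RPKM with DMSO). Their part in the ribosomal protein difference was not tested. In these bulk cultures a different number of cells of a type and a different amount of RNA per cell cannot be told apart.

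Lists for other lineages were low. The chondrocyte list summed to 24.1 to 25.1 RPKM with 611 and 10.2 to 10.9 RPKM with DMSO, with Acan and Matn1 at 0, and 2 of its 3 tested genes rose. The osteoblast list summed to 5.52 to 6.02 RPKM with 611 and 3.24 to 3.59 RPKM with DMSO, with 1 rise and 1 fall. Skeletal muscle (Myod1, Myog, Ckm and Actn2), blood (Ptprc and Cd3e) and endothelium (Cdh5 and Kdr) had their defining markers at 0 in all 6 libraries.

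Levels among the core genes spanned a wide range within each library. The highest core gene stood 34.1 to 37.6 times above the lowest in the 611 libraries, and 35.3 to 40.0 times in the DMSO libraries, although most of the proteins are used in equal numbers in a ribosome. This range rests on Rps15a, whose transcript has a listed length of 5179 bases. Above the next lowest gene, Rpl22, the highest stood 15.02 to 17.2 times in the 611 libraries and 16.6 to 19.1 times in the DMSO libraries. RPKM is per transcript length, but reads that also match pseudogenes can shift a level, and 62 of the 77 core genes have at least 1 named pseudogene in RefSeq. Replicates lay close together, with a median coefficient of variation over the core genes of 2.39% with 611 and 3.44% with DMSO.

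The 6 highest genes were Rpl41, Rplp1, Rps2, Rps18, Rps12 and Rpl19, and all rose. Rpl41, a very short basic peptide at the subunit interface, had 1059.8, 1118 and 1013 RPKM with 611, against 879.7, 957 and 785 RPKM with DMSO (log2 fold change 0.29 ± 0.08 SE, limma adjusted p = 0.0104). Its groups did not overlap, but it was also the most variable of the 6. Rps2, a small-subunit protein at the entry of the messenger RNA channel, had 1003, 1023 and 993 RPKM with 611, against 800.1, 843 and 803 RPKM with DMSO (0.30 ± 0.05 SE, limma adjusted p = 0.000481). Rps18, a protein of the small-subunit head, had 739, 753 and 747 RPKM with 611, against 589, 602 and 597 RPKM with DMSO (0.32 ± 0.04 SE, limma adjusted p = 0.000147). Rpl19, an exit-tunnel protein, rose least of the 6 (0.14 ± 0.04 SE, limma adjusted p = 0.0239), and missed the threshold without 611 replicate 2, DMSO replicate 1 or DMSO replicate 3 (limma adjusted p = 0.0536 to 0.0871). With median-of-ratios scaling Rpl41 (0.13, limma adjusted p = 0.161) and Rpl19 (-0.016, limma adjusted p = 0.792) no longer passed, while the other 4 did. The lowest core gene, Rps15a, another small-subunit protein, had 28.2, 29.7 and 29.8 RPKM with 611, against 22.4, 23.9 and 22.8 RPKM with DMSO (0.33 ± 0.04 SE, limma adjusted p = 0.000165). The rises of the 6 highest genes, between 0.14 and 0.34, enclosed that of the lowest. Rps15a is the lowest in RPKM at its listed length of 5179 bases, so this does not show whether the rise depends on level.

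The 6 largest rises were those of Rps28, Rpl3, Rpl12, Rpl39, Rpl13 and Rpl14, between 1.36-fold and 1.41-fold in mean RPKM. Rps28, which sits near the exit of the messenger RNA channel, had 445, 448 and 432 RPKM with 611, against 321, 325 and 292 RPKM with DMSO (log2 fold change 0.50 ± 0.05 SE, limma adjusted p = 4.2e-05). Rpl3, whose loop reaches towards the site of peptide bond formation, had 374, 379.8 and 382 RPKM with 611, against 263, 277 and 271 RPKM with DMSO (0.48 ± 0.04 SE, limma adjusted p = 1.01e-05). Rpl39, a small protein lining the exit tunnel of the nascent chain, had 576, 560.0 and 585 RPKM with 611, against 421, 413 and 416 RPKM with DMSO (0.46 ± 0.04 SE, limma adjusted p = 1.62e-05). In each of these genes the lowest 611 library lay well above the highest DMSO library. Rpl13 (0.46) and Rpl14 (0.45), 2 large-subunit proteins, rose as well, and all 6 also rose after median-of-ratios scaling (log2 fold changes of 0.29 to 0.35).

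The P stalk is the flexible arm of the large subunit that recruits the GTPase translation factors; it consists of the scaffold Rplp0, the acidic proteins Rplp1 and Rplp2, and Rpl12 at its base. Rpl12, Rplp0 and Rplp1 rose, and Rplp2 did not pass the test. Rpl12 had 354, 365 and 355 RPKM with 611, against 259, 266 and 249.8 RPKM with DMSO (0.47 ± 0.04 SE, limma adjusted p = 1.61e-05). Rplp0 had 567, 612 and 564 RPKM with 611, against 452, 494 and 448 RPKM with DMSO (0.32 ± 0.05 SE, limma adjusted p = 0.000984). The groups did not overlap in either gene. Rplp1 had 1026, 1042 and 1016 RPKM with 611, against 841, 825 and 786 RPKM with DMSO (0.33 ± 0.05 SE, limma adjusted p = 0.000335). Rplp2, which pairs with Rplp1, had 439, 487 and 436 RPKM with 611, against 407, 455 and 414 RPKM with DMSO (0.09 ± 0.06 SE, limma adjusted p = 0.216). Its groups overlapped, and in both groups replicate 2 was the highest. With the replicate number as a block Rplp2 passed (limma adjusted p = 0.0242), and after median-of-ratios scaling its value was -0.058.

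Rpl5 and Rpl11 join the 5S ribosomal RNA before it enters the large subunit, and together they can bind the p53 ligase Mdm2. Rpl5 had 143, 152 and 153 RPKM with 611, against 119, 128 and 125 RPKM with DMSO (0.27 ± 0.04 SE, limma adjusted p = 0.000831). Rpl11 had 379, 384 and 388 RPKM with 611, against 345, 359 and 341 RPKM with DMSO (0.14 ± 0.04 SE, limma adjusted p = 0.0125). Neither gene's groups overlapped. After median-of-ratios scaling Rpl5 still rose (0.12, limma adjusted p = 0.0323) and Rpl11 was at -0.011. Without DMSO replicate 1 Rpl11 missed the threshold (limma adjusted p = 0.0521).

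All 8 genes around the peptide exit tunnel rose (median 0.28), and all 4 at the entry and exit of the messenger RNA on the small subunit rose (median 0.31). Of the 16 genes on the list of those mutated in human Diamond-Blackfan anaemia, a failure of red cell production, 15 rose (median 0.28). The exception was Rpl27. Of all 77 core genes 94.8% rose, so these shares were near that of the core genes as a whole. After scaling 5 of the 8, 4 of the 4 and 12 of the 16 rose.

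Rpl27, Rpl36, Rpl9 and Rplp2, all large-subunit proteins, were the 4 core genes that did not pass the test. Rpl27 had 279, 281 and 281 RPKM with 611, against 264, 263 and 266 RPKM with DMSO (0.08 ± 0.03 SE, limma adjusted p = 0.0579). Its groups did not overlap, with a gap that was narrow beside those of the largest rises. Rpl36 had 279, 296 and 273 RPKM with 611, against 270.3, 280.1 and 254 RPKM with DMSO (0.08 ± 0.05 SE, limma adjusted p = 0.214). Rpl9 had 433, 449.6 and 429 RPKM with 611, against 399, 432 and 398 RPKM with DMSO (0.09 ± 0.05 SE, limma adjusted p = 0.118). In both genes the groups overlapped through DMSO replicate 2. With the replicate number as a block all 4 passed, with limma adjusted p = 0.0264 for Rpl27, limma adjusted p = 0.0450 for Rpl36 and limma adjusted p = 0.0284 for Rpl9. After median-of-ratios scaling Rpl27 (-0.067), Rpl36 (-0.074) and Rpl9 (-0.059) were below 0.

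To see how the core genes moved against each other, each library was centred on the mean log2 level of the 77 core genes, a fit added after the values were known. The mean is taken over the same 77 genes, so that changes on both sides of it follow from the centring. Relative to that mean 11 core genes were higher, 12 were lower and 54 did not pass the test (limma, adjusted over all genes tested). Of all genes tested, 16.4% were above the core mean change and 52.5% below it. The 11 were Rps28, Rpl3, Rpl12, Rpl39, Rpl13, Rpl14, Rps4x, Rpl22, Rps27, Rps21 and Rps16, from 0.21 for Rps28 downwards. The 12 included Rpl36, Rpl27, Rpl9, Rplp2, Rpl19, Rpl24, Rpl11, Rps6, Rps27a, Rps25 and Rpl10a, with Rpl36 lowest at -0.21. Without 611 replicate 3, or without DMSO replicate 1, 7 core genes were above the mean change in place of 11.

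Core genes with and without a pyrimidine run near the start changed by like amounts. The 30 core genes with a run of at least 8 bases had a median log2 fold change of 0.30, and so did the 27 without one. Rps28 and Rpl12, with shorter runs in the windows shown, were among the largest rises, and Rplp2, with a longer run, did not pass the test. For the other motifs, medians with and without were 0.28 (9 genes) and 0.31 for CTCTTT, and 0.27 (11 genes) and 0.32 for CCGGAAGT. They were 0.33 (5 genes) and 0.30 for GCCATCTT, and 0.37 (6 genes) and 0.29 for TATAAA. The ranges with and without each motif overlapped, and these differences were not tested.

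Of the 4 tested paralogs of core ribosomal proteins 1 rose, 1 fell and 2 did not pass the test, while all 4 partners rose. The shares over all genes tested were 41.6% rises and 17.7% falls. Rpl22l1, a paralog of the RNA-binding large-subunit protein Rpl22, had 103, 107 and 115 RPKM with 611, against 102, 94.4 and 96.4 RPKM with DMSO (0.15 ± 0.05 SE, limma adjusted p = 0.0278). Rpl22 itself had 64.2, 65.2 and 67.6 RPKM with 611, against 46.1, 51.5 and 48.4 RPKM with DMSO (0.43 ± 0.05 SE, limma adjusted p = 6.67e-05). In RPKM the paralog was thus the higher of the pair in every library. That order rests on the listed transcript lengths, 2051 bases for Rpl22 and 552 bases for Rpl22l1. Reads were estimated back from RPKM with these lengths, which may differ from those behind the deposited values. By that estimate Rpl22 was the higher, with 3671 to 5670 reads over the 6 libraries, against 2070 to 2599 for Rpl22l1. The change of Rpl22l1 was -0.00016 after median-of-ratios scaling. Without 611 replicate 2 or 3, or DMSO replicate 2 or 3, its rise missed the threshold (limma adjusted p = 0.0513 to 0.0902). Rpl36al was the gene that fell: it had 167, 166 and 173 RPKM with 611, against 182, 185 and 185 RPKM with DMSO (-0.12 ± 0.03 SE, limma adjusted p = 0.0141). Its partner Rpl36a, of the same large-subunit family, had 221, 217 and 218 RPKM with 611, against 179, 170.3 and 177 RPKM with DMSO (0.32 ± 0.04 SE, limma adjusted p = 8.92e-05). In neither gene did the groups overlap, and they moved in opposite directions. Without 611 replicate 2 the fall of Rpl36al missed the threshold (limma adjusted p = 0.0528), and it also did so once a trend with transcript length and level was removed (-0.084, limma adjusted p = 0.0816).

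Rps27l, a p53-inducible paralog of the small-subunit protein Rps27, had 111, 104 and 104 RPKM with 611, against 110.1, 109 and 108 RPKM with DMSO (-0.03 ± 0.04 SE, limma adjusted p = 0.498). Rps27 had 251, 274 and 259 RPKM with 611, against 194, 202 and 188 RPKM with DMSO (0.42 ± 0.05 SE, limma adjusted p = 6.67e-05). Rpl7l1, a paralog of Rpl7, had 30.8, 29.4 and 31.6 RPKM with 611, against 30.6, 32.4 and 32.0 RPKM with DMSO (-0.05 ± 0.04 SE, limma adjusted p = 0.360). Rpl7, a large-subunit protein, had 469.9, 479.9 and 496 RPKM with 611, against 403, 397 and 400.1 RPKM with DMSO (0.27 ± 0.04 SE, limma adjusted p = 0.000422). Both partners rose with groups apart, while the groups of both paralogs overlapped. After median-of-ratios scaling Rps27l (-0.18), Rpl7l1 (-0.19), Rpl36al (-0.27) and Rps19bp1 (-0.23) all fell. In the fit centred on the core mean, where 52.5% of all genes were lower, Rpl36al (-0.41, limma adjusted p = 2.32e-05), Rpl7l1 (-0.34, limma adjusted p = 0.000205) and Rps27l (-0.32, limma adjusted p = 0.000227) lay below that mean. Rpl22l1 did not pass there (-0.14, limma adjusted p = 0.0505).

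The ratio of a paralog to its partner within a library does not depend on scaling. Rpl36al over Rpl36a was 0.772 ± 0.0220 with 611 and 1.05 ± 0.0348 with DMSO (SD, n = 3 each), a log2 difference of -0.44. Rps27l over Rps27 was 0.408 ± 0.0307 with 611 and 0.559 ± 0.0195 with DMSO (-0.46). Rps27 cannot be told apart from its copy Rps27rt in these values, so that partner level may hold reads of both. Rpl7l1 over Rpl7 was 0.0635 ± 0.00217 with 611 and 0.0791 ± 0.00296 with DMSO (-0.32). Rpl22l1 over Rpl22 was 1.65 ± 0.0481 with 611 and 2.01 ± 0.193 with DMSO (-0.28). In all 4 pairs every 611 library lay below every DMSO library. All 4 partners are core genes that rose, and relative to the core mean 52.5% of all genes tested were lower. How many other genes would lie apart in this way over the same partners was not tested. Each two-sided exact permutation test gave p = 0.1 (0.1 after adjustment over the 4 pairs), the smallest value that 3 against 3 libraries allow, so none can pass 0.05.

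**Figure D3:**
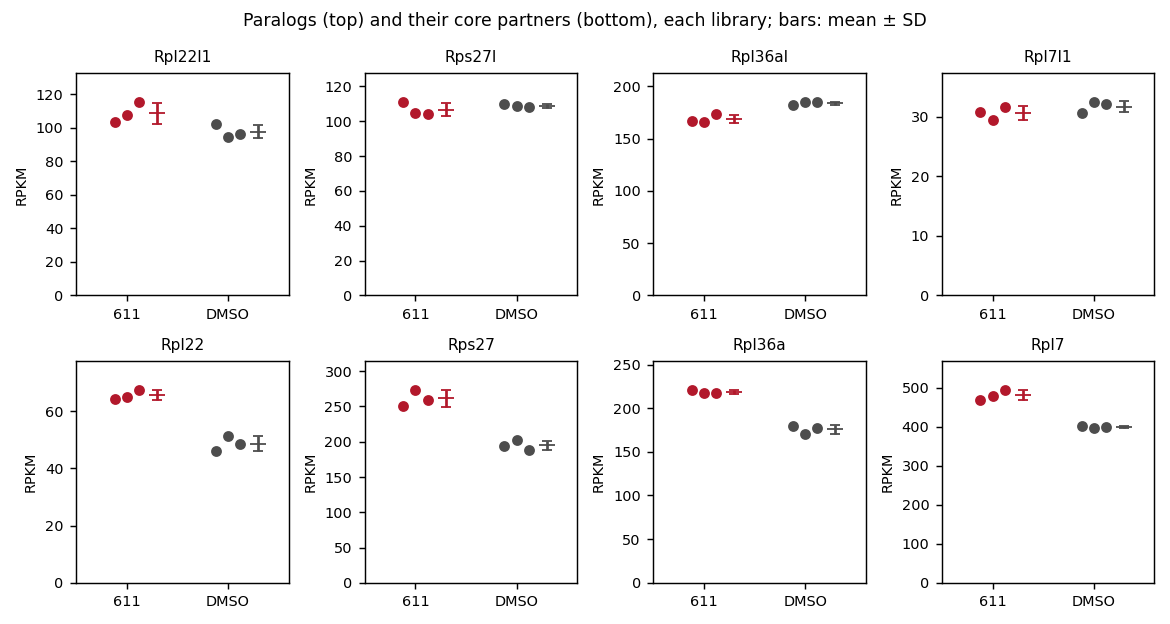
RPKM of 4 paralogs (top row) and their core partners (bottom row) in each library, 611 on the left and DMSO on the right, with bars for the mean ± SD of 3 libraries. Every partner is higher in all 3 libraries with 611, while Rpl36al is lower in all 3, and Rps27l and Rpl7l1 overlap between the groups.

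The remaining paralogs were at or near the level of no reads. Rpl10l, known from the testis, was listed at 0 in all 6 libraries. Rpl39l had 0.0603 RPKM in 1 of the 611 libraries and 0.0312 RPKM in 1 of the DMSO libraries, and 0 in the others. Rps4l had 0.0521 and 0.0520 RPKM in 2 of the 611 libraries and 0.0547 RPKM in 1 of the DMSO libraries. Rpl3l, known from striated muscle, had 0, 0.0467 and 0.0235 RPKM with 611 and 0.0991, 0.0727 and 0.0725 RPKM with DMSO. These 4 did not pass the filter and were not tested.

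Copies of core genes can share reads with the genes they came from. Rps27rt, a retrogene of Rps27, had 252, 275 and 260.1 RPKM with 611 and 195, 203 and 189 RPKM with DMSO, within 1 RPKM of Rps27 in every library, and the pair cannot be told apart in these values. Rps23rg1, a retrogene of Rps23, had 4.87, 4.63 and 4.84 RPKM with 611, against 3.29, 4.07 and 3.99 RPKM with DMSO (0.28 ± 0.07 SE, limma adjusted p = 0.0108), and 0.15 after scaling (limma adjusted p = 0.0971). Rpl32l had 8.07, 8.82 and 7.02 RPKM with 611 and 4.96, 7.57 and 6.44 RPKM with DMSO (0.30 ± 0.13 SE, limma adjusted p = 0.0684), with overlapping groups, and passed with the replicate block (limma adjusted p = 0.0272) and without DMSO replicate 2 (limma adjusted p = 0.0125). Rps19bp1 had 16.1, 14.6 and 14.9 RPKM with 611 and 16.4, 17.2 and 15.1 RPKM with DMSO (-0.09 ± 0.06 SE, limma adjusted p = 0.223), also with overlapping groups.

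Most other listed mRNAs with a TOP start rose too. Their list is not separate from that of the initiation factors below, as Eif3f is on both. Of the 16 tested outside the ribosome 13 rose and none fell, where 41.6% of all genes tested rose and 17.7% fell. The median log2 fold change of the list was 0.33. After median-of-ratios scaling it held 10 rises and 1 fall, where 28.5% of all genes rose and 28.6% fell. The largest rise was that of Vim, the intermediate filament protein vimentin, which is also a mesenchymal marker. It had 1001, 1129 and 1072 RPKM with 611, against 533, 575 and 531 RPKM with DMSO (0.96 ± 0.06 SE, limma adjusted p = 2.78e-06). Hnrnpa1, an RNA-binding protein of splicing, had 138, 145 and 151 RPKM with 611, against 88.7, 91.5 and 96.3 RPKM with DMSO (0.65 ± 0.05 SE, limma adjusted p = 5.95e-06). Eif3f, a subunit of initiation factor eIF3, rose by 0.39 (limma adjusted p = 0.000499). The groups did not overlap in any of these 3 genes.

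Translation factors were mixed. Of 37 initiation factor genes 15 rose and 10 fell (median 0.07), where 41.6% of all genes tested rose and 17.7% fell, so the share of rises was near that of all genes. After median-of-ratios scaling 5 rose and 15 fell (median -0.079). Eif2b2 (0.54), Eif3f (0.39) and Eif3e (0.37) rose most, and Eif5 (-0.27), Mcts1 (-0.26) and Eif2b1 (-0.24) fell most. Eif2b1 and Eif2b2 encode subunits of the same guanine nucleotide exchange factor, eIF2B, and changed in opposite directions. Of 12 elongation and termination genes 4 rose and 2 fell (median 0.08), and after scaling 2 rose and 3 fell (median -0.062). Eef1g (0.35) and Eef1d (0.33), subunits of the exchange factor of elongation factor 1, and the translocase Eef2 (0.27) rose. Abce1, which splits ribosomes for recycling (-0.13), and Eif5a (-0.11) fell. Abce1 missed the threshold without 611 replicate 1 or 2, or DMSO replicate 1 or 3 (limma adjusted p = 0.0675 to 0.148). Eif5a missed it without 611 replicate 3 or any 1 of the DMSO libraries (limma adjusted p = 0.0543 to 0.0888). Eef2 was at 0.11 after scaling (limma adjusted p = 0.0622).

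Factors that build ribosomes held rises and falls, with a smaller share of rises than all genes tested. Of 48 assembly factor genes 9 rose and 10 fell around a median of 0.0071, where 41.6% of all genes tested rose and 17.7% fell. After median-of-ratios scaling 3 rose and 25 fell, where 28.5% of all genes rose and 28.6% fell. Npm1, the nucleolar chaperone nucleophosmin, had 193, 201 and 218 RPKM with 611, against 157, 157 and 166 RPKM with DMSO (0.34 ± 0.05 SE, limma adjusted p = 0.000377). Riok1 (0.29, and 0.16 after scaling with limma adjusted p = 0.0519) and Rrp1 (0.27) also rose, and Nol6 (-0.29), Nhp2 (-0.26) and Sbds (-0.25) fell. Of 14 genes of RNA polymerase I and its factors, which make ribosomal RNA, 3 rose (Taf1b, Znrd1 and Ubtf) and 2 fell (Taf1d and Rrn3), and after scaling none rose and 6 fell. Ubtf, at 0.12, missed the threshold without any 1 of the libraries other than DMSO replicate 2 (limma adjusted p = 0.0767 to 0.138). Taf1b, at 0.24, missed it without 611 replicate 3 or DMSO replicate 2 or 3 (limma adjusted p = 0.0504 to 0.0687).

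Among 6 chaperones of single ribosomal proteins 2 rose and 1 fell (1 and 2 after scaling). Tsr2, the escort of Rps26, had 6.50, 6.70 and 6.69 RPKM with 611, against 4.35, 4.48 and 4.24 RPKM with DMSO (0.51 ± 0.05 SE, limma adjusted p = 3.71e-05). Pdcd2l rose by 0.21, and Grwd1, the escort of Rpl3, was at -0.20 and fell. Pdcd2l missed the threshold without DMSO replicate 3 (limma adjusted p = 0.0502). Grwd1 missed it without 611 replicate 2 or 3 or DMSO replicate 2 (limma adjusted p = 0.0514 to 0.0589). Of 19 regulators of ribosomal protein synthesis 3 rose and 7 fell (median -0.07), and after scaling none rose and 12 fell. The shares over all genes tested were 41.6% rises and 17.7% falls, and after scaling 28.5% rises and 28.6% falls. Eif4ebp1 (-0.39) and Eif4ebp2 (-0.33), which repress translation when mTOR is inactive, fell together with Mtor itself (-0.33). Myc, named after its value was seen, had 11.1, 10.1 and 11.9 RPKM with 611, against 13.5, 13.5 and 13.2 RPKM with DMSO (-0.26 ± 0.06 SE, limma adjusted p = 0.00416), and fell. Max (0.26), the partner of Myc, and the mTOR inhibitors Tsc1 (0.23) and Tsc2 (0.14) rose. Tsc2 missed the threshold without 611 replicate 2 or DMSO replicate 2 or 3 (limma adjusted p = 0.0546 to 0.0578). Once the trend with length and level was removed, Tsc1 (0.0074, limma adjusted p = 0.908) and Tsc2 no longer passed. The same held for Eif5a, Riok1, Taf1b, Znrd1, Ubtf, Pdcd2l, Rps23rg1 and Mrps25 (limma adjusted p of 0.172 or more).

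Most genes of the mitochondrial ribosome fell. Of 78 mitochondrial ribosomal protein genes 5 rose and 62 fell, and the median was -0.22 (1 and 71 after median-of-ratios scaling). Over all genes tested 41.6% rose and 17.7% fell (28.5% and 28.6% after scaling). Mrpl38 had 37.5, 34.1 and 35.3 RPKM with 611, against 55.6, 52.2 and 45.6 RPKM with DMSO (-0.51 ± 0.07 SE, limma adjusted p = 0.000285). Mrpl20 (-0.50) and Mrpl12 (-0.49), a stalk protein of the mitochondrial ribosome, fell by like amounts. Mrps6 rose, with 361, 371 and 383 RPKM with 611, against 268, 277 and 271 RPKM with DMSO (0.45 ± 0.04 SE, limma adjusted p = 1.87e-05), and Mrpl52 (0.19) and Mrps25 (0.18) rose less. Neither passed after scaling, and Mrps25 missed the threshold without DMSO replicate 1 (limma adjusted p = 0.0538).

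**Figure D4:**
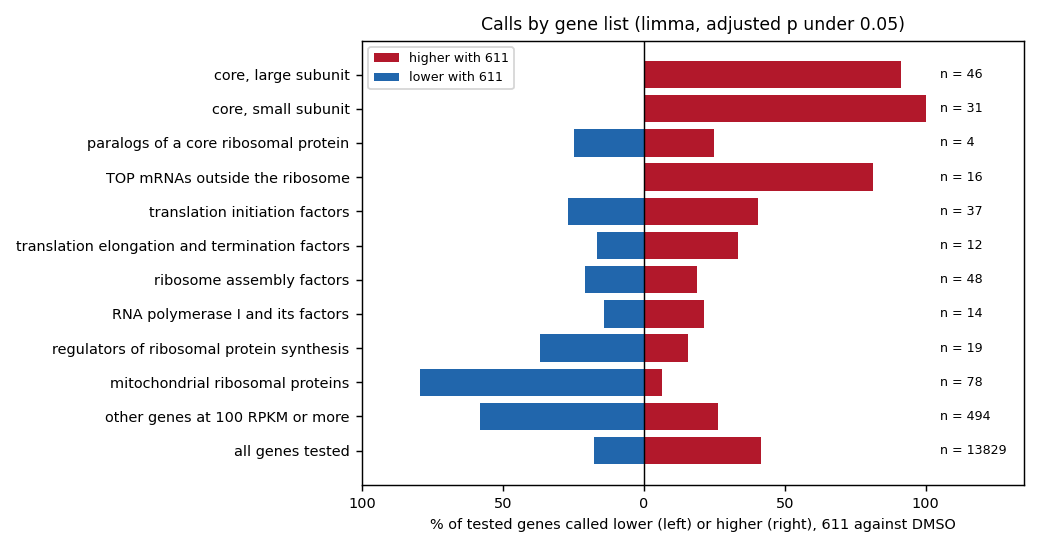
Share of tested genes (%) in each list that rose (right of 0) or fell (left of 0) with 611 relative to DMSO, by limma with adjusted p under 0.05, with the number of genes tested. Both cytosolic subunits and the TOP mRNAs outside the ribosome hold rises and no falls (1 fall among the TOP mRNAs after median-of-ratios scaling), initiation and assembly factors hold both, and 62 of 78 mitochondrial ribosomal protein genes fell.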

How the data were processed

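RNA was sequenced from 6 cultures, 3 with 611 and 3 with DMSO, grouped and numbered by sample title. TRIzol extraction and a stranded mRNA library kit are stated per the labels' protocols. Per the submitters' processing notes, TopHat2 2.0.12, TopHat, SAMtools and mouse build mm9 were used. The authors deposited RPKM for 28430 RefSeq transcripts per library; the sources used here name neither the program behind the RPKM values nor its annotation or use of strand, so overlapping genes and near-identical copies cannot be told apart. They do not say whether a read pair counted once. About 50% of low values were whole reads within 0.02 reads, against about 2.3% at other totals, which was too few for a count test; depth limits values near 3 reads only.

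Symbols came from a RefSeq table of GRCm38.p6, used for names and promoter sequences (27789 accessions matched; 641 without a symbol held 1.50% of RPKM). The transcript with the highest mean stood for its gene. Transcript lengths were those of GENCODE transcripts paired with the RefSeq ones, and read numbers were estimated with them. RPKM were tested as log2(RPKM + 1), a scale that understates the change of low genes, with limma 3.58.1 in R 4.3.3 (trend, group only) over genes at 0.1 RPKM or more in at least 3 libraries, with Benjamini-Hochberg adjustment. The fit was tested on simulated data. Paralog ratios used two-sided exact permutation tests over libraries.

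The members and gene lists were chosen with earlier results of these data known. Named with values are paralogs and partners, stalk and 5S genes, copies, the 6 highest and lowest levels and the 6 largest and smallest changes, genes changed against most, and up to 3 called genes per direction in each related list. The core genes named relative to the core mean were named after their values were seen. Single genes of the counts and lists are not reported here by name. The series' text calls the samples biological triplicates of 1 line, so p-values measure only the spread between these cultures. Deviations from the group means correlated between same-numbered libraries (0.296, 0.298 and 0.177), so the replicate block is given where it changes a call. Correlations between the other libraries were negative. Centring each group on its own mean makes them so on balance when the same-numbered ones are positive. Alternatives were other scalings, pseudocounts, filters and transcripts, the replicate block, each library left out and, added after the data were seen, removal of a trend with length and level. Gas5 and Noc2l of the lists, and the blood markers Cd68 and Hbb-b1, matched no symbol and were not analysed here.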

Additional observations from a re-analysis of the deposited data

How the results depend on the processing

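Under the alternatives run, core genes that rose numbered between 50 (median-of-ratios scaling) and 77 (replicate block), and 70 to 74 when each library was left out, against 73. Upper-quartile scaling gave 56. No core gene fell, except Rpl36 with block and median-of-ratios scaling together (1). Over all genes, 2451 fell, against 3962 with median-of-ratios scaling, 4327 with that scaling and the block, and 4216 once the trend with length and level was removed, which left 3546 rises against 5758. Ribosomal protein genes that fell numbered 1, against 4 with either scaling, 5 with block and scaling, 2 without a filter, and 0 to 1 with each library left out. In the related lists 47 rose and 94 fell. The rises numbered 16 with median-of-ratios scaling, 22 with upper-quartile scaling and 19 with block and scaling, and the falls 145 with block and scaling. Core genes above the core mean change numbered 7 to 10 over the libraries left out, against 11. With median-of-ratios scaling, with or without the block, log2 fold changes turned sign for Rpl11 (-0.0113), Rpl19 (-0.0157), Rpl22l1 (-0.000163), Rpl27 (-0.0671), Rpl36 (-0.0742), Rplp2 (-0.0580) and Ubtf (-0.0262). Upper-quartile scaling turned Rpl27 (-0.0254), Rpl36 (-0.0324) and Rplp2 (-0.0161). Removing the trend turned Eif5a (0.0118), Mrps25 (-0.0268) and Tsc2 (-0.0490). The cause was not tested. The 4 paralog ratios kept their direction under each alternative run, and with same-numbered libraries paired an exact sign-flip test gave p = 0.25, the smallest it can give. The replicate block made Rpl9, Rpl27, Rpl36, Rplp2 and Rpl32l pass. It changed no other call among the named genes.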
